A study of Mus musculus with 576 samples.

Results

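Autophagy is the process by which a cell encloses part of its own cytoplasm in a double membrane and delivers it to the lysosome for breakdown. The machinery has a fixed order of steps. The ULK kinase complex starts the process, a class III PI3 kinase complex with Beclin 1 marks the membrane with a lipid, ATG9 and ATG2 supply lipid, and ubiquitin-like enzymes attach proteins of the ATG8 family (LC3 and GABARAP) to the growing membrane. Cargo receptors such as p62 (gene Sqstm1) bind both the cargo and ATG8. In blood stem cells, loss of Atg7, Atg12 or Rb1cc1 in mice is known to impair stem cell maintenance. The genes of this machinery were chosen by name, as 37 mouse genes that cover these steps, and all 37 were found by Ensembl ID among the 46078 genes of the deposited counts. The choice was by name and not by level, but earlier results of these data were known when it was made.

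The counts came from single haematopoietic stem cells of mouse bone marrow, flushed from femurs and tibias and sorted as CD150+CD48-cKit+Sca1+. Marrow treated with lipopolysaccharide (LPS), the outer membrane molecule of Gram-negative bacteria that innate immune receptors sense, was set against control marrow. A p27 marker split the cells of either treatment into p27 high, p27 low and p27 negative classes. The series title speaks of G0 markers, where G0 is the non-cycling resting state. The 6 groups were LPS p27 high, LPS p27 low, LPS p27 negative, control p27 high, control p27 low and control p27 negative, with 96 cells each. No mouse strain, age, number of animals, LPS dose or time is given in the sources used here, nor how the p27 marker was read out. Each group therefore counts as 1 sample, no difference was tested, and every difference below is a description of these cells.

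Cells with at least 50000 gene reads were kept, 93 of LPS p27 high, 90 of LPS p27 low and 92 of LPS p27 negative cells, and 84, 93 and 95 of the matching control classes. The median cell had 224003 to 439918 gene reads, depending on the group. Levels are counts per 1000000 (CPM), the reads of a gene summed over the kept cells of a group per 1000000 gene reads of that group. A log2 fold is the difference of log2(CPM + 1), which understates the change of genes with few reads. A gene was called higher or lower when it differed by at least 1.5-fold, and in the same direction in each of 3 parts of the cells, taken as cells numbered 1 to 32, 33 to 64 and 65 to 96. The parts are not replicates. Calls were made on the 9744 genes with a mean of at least 10 CPM over the 6 groups, which 36 of the 37 genes passed. Atg4a, a minor protease of the ATG8 system, did not pass, with 6.61, 2.66 and 5.02 CPM in LPS p27 high, low and negative cells, against 8.52, 3.65 and 6.06 CPM in the control classes.

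The labels were set against marker genes. Of 12 listed LPS response genes 11 were measured, and all 11 were called higher after LPS in each class. The summed level of 8 proliferation genes was 169, 139 and 3132 CPM in LPS p27 high, low and negative cells, against 133, 256 and 3386 CPM in the control classes, so these genes were highest in p27 negative cells. The summed level of 8 stem cell genes was 2816, 2068 and 1383 CPM in LPS p27 high, low and negative cells, against 2598, 1842 and 1236 CPM in the control classes. Ly6a alone had 1220, 1090 and 455 CPM in LPS p27 high, low and negative cells, against 331, 122 and 49.7 CPM in the control classes. No other gene of the 8 was called higher after LPS in any class. Hlf and Procr were called lower after LPS in p27 high and low cells. Summed megakaryocyte markers, with Gp6 at 0 reads in every group, ran at 253, 857 and 945 CPM in LPS p27 high, low and negative cells, against 331, 1282 and 1395 CPM in the control classes. Over the 3 parts this sum ran from 514 to 1431 CPM in LPS p27 low and from 527 to 2404 CPM in control p27 low cells. Summed erythroid markers ran at 40.3, 189 and 134 CPM in LPS p27 high, low and negative cells, against 74.8, 319 and 662 CPM in the control classes. The erythroid sum of control p27 negative cells ran from 184 to 1586 CPM over the parts, and Car1 alone had 384 CPM there. Summed granulocyte and monocyte markers ran at 812, 600.5 and 462 CPM in LPS p27 high, low and negative cells, against 1136, 1062 and 699 CPM in the control classes, and the 6 lymphoid markers summed to at most 3.13 CPM in any group. Lyz2 and Prtn3 made up most of the granulocyte and monocyte sum in every group, with 525 and 268 CPM in LPS p27 high cells. The part of dividing or lineage-primed cells in the differences below was not tested.

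The cells also carried spike-in RNA. Group sums gave 25.6, 23.9 and 44.8 gene reads per spike-in read in LPS p27 high, low and negative cells, against 9.37, 9.84 and 12.7 in the control classes. Control cells numbered 1 to 32 stood apart, with medians of 4.45 in p27 high, 4.88 in p27 low and 7.13 in p27 negative cells, against 18.7 to 36.4 in the later control cells. In cells numbered 33 to 96 the ratios were 25, 23.5 and 41.8 after LPS and 19.1, 23.2 and 33.8 in control. p27 negative cells thus had the most gene reads per spike-in read in each treatment, and CPM folds describe a gene's part of the RNA, not its amount per cell. Of the 91 calls described below, 20 turned direction per spike-in read on all cells and 6 in cells numbered 33 to 96, and these are named beside their values.

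Levels of different genes were compared per kilobase of merged exons, as means over the 6 groups. Gabarap and Sqstm1 led with 136 and 125 CPM per kb, followed by Gabarapl1 at 89.02, Atg3 at 43.5 and Map1lc3b at 35.8. With the length of the principal transcript instead, the same 5 genes led in another order, with Sqstm1 at 206, Gabarap at 186 and Map1lc3b at 106 CPM per kb. The 5 are 3 ATG8 genes, the receptor gene Sqstm1 and the enzyme gene Atg3.

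**Figure D1:**
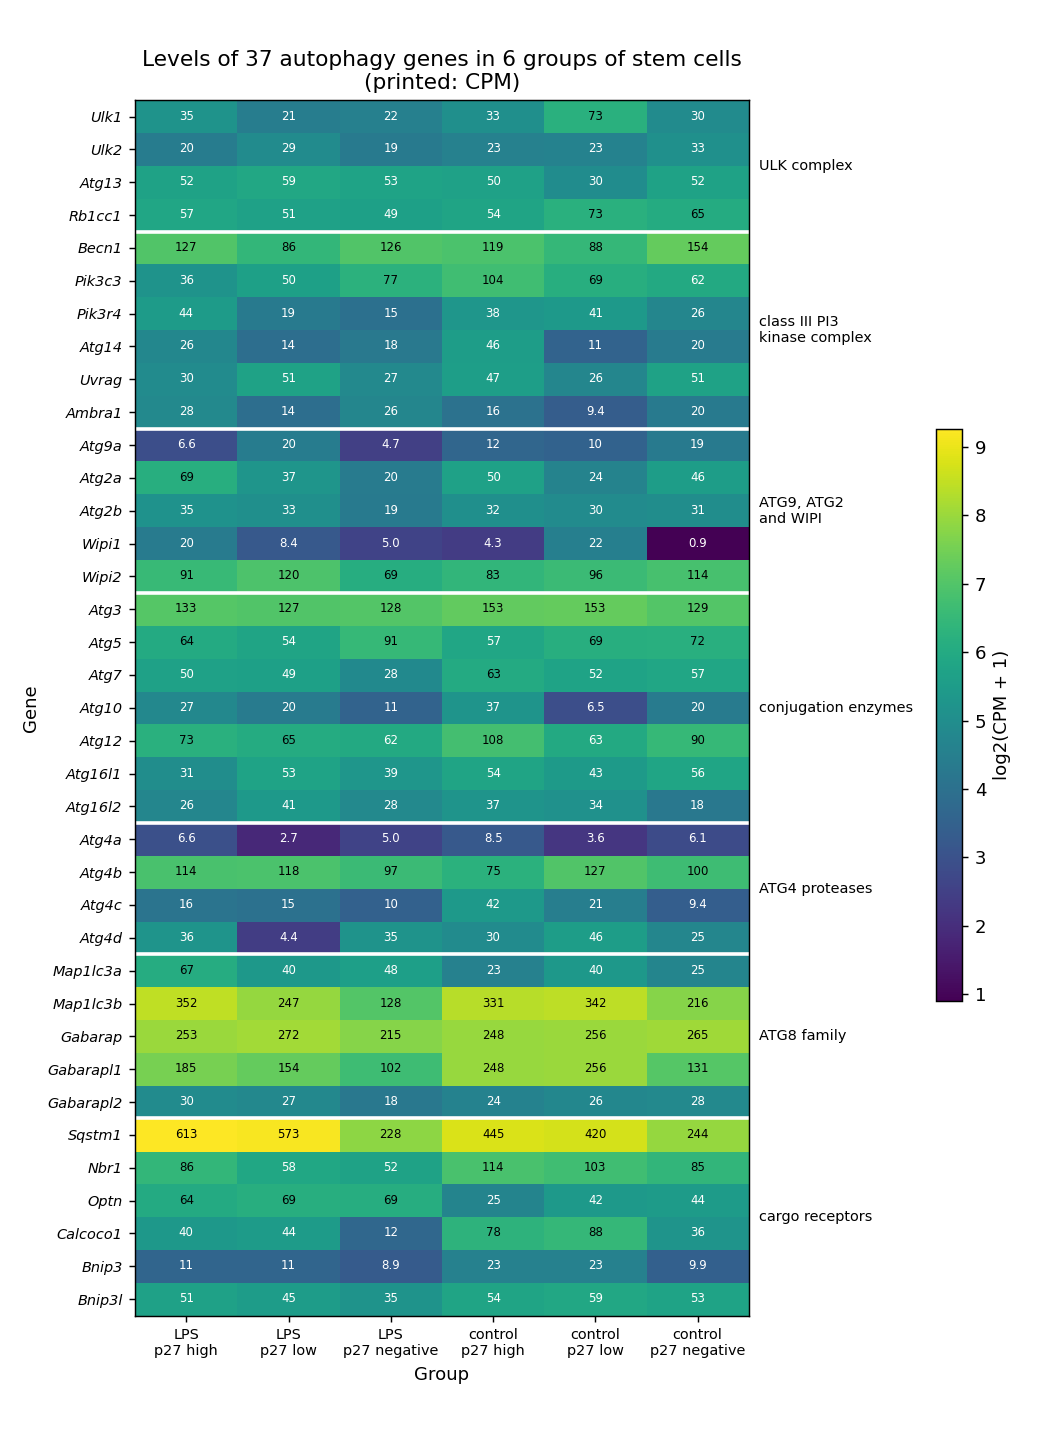
Heat map of the 37 genes (rows, grouped by role) in the 6 groups (columns, LPS classes left of control classes). Colour is log2(CPM + 1) and the printed number is CPM. Sqstm1, Map1lc3b, Gabarap and Gabarapl1 are the brightest rows, and p27 negative cells after LPS are the darkest of the LPS columns for Sqstm1, Map1lc3b, Gabarapl1 and Calcoco1.

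The ATG8 family, whose lipid-bound members decorate the membrane and hold the receptors, was described first. Map1lc3b (ENSMUSG00000031812, chromosome 8, 121590361 to 121598760, plus strand), the commonly used LC3 marker, had 352, 247 and 128 CPM in LPS p27 high, low and negative cells, against 331, 342 and 216 CPM in the control classes. Gabarapl1 (ENSMUSG00000030161, chromosome 6, 129533160 to 129542346, plus strand) had 185, 154 and 102 CPM in LPS p27 high, low and negative cells, against 248, 256 and 131 CPM in the control classes. Both genes were lowest in p27 negative cells in each treatment. Gabarap had 253, 272 and 215 CPM in LPS p27 high, low and negative cells, against 248, 256 and 265 CPM in the control classes, the narrowest spread of the family, and it was called in no comparison. Map1lc3a had 66.6, 39.9 and 47.9 CPM in LPS p27 high, low and negative cells, against 22.6, 40.2 and 25.4 CPM in the control classes, with its top value in LPS p27 high cells. Gabarapl2 had 29.6, 27.1 and 17.9 CPM in LPS p27 high, low and negative cells, against 23.5, 25.99 and 27.7 CPM in the control classes, and its lowest level was that of LPS p27 negative cells.

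Among the cargo receptors, Sqstm1 (ENSMUSG00000015837, chromosome 11, 50199366 to 50210827, minus strand) had 613, 573 and 228 CPM in LPS p27 high, low and negative cells, against 445, 419.9 and 244 CPM in the control classes. The exact Poisson intervals, which cover the counting of reads only, were 604 to 621 CPM in LPS p27 high and 224 to 232 CPM in LPS p27 negative cells. The 3 parts of cells ran much wider, at 470.1 to 684 CPM and 209.6 to 265 CPM in the same groups, and these ranges did not overlap. Calcoco1 (ENSMUSG00000023055, chromosome 15, 102706777 to 102722178, minus strand), a receptor for turnover of the endoplasmic reticulum, had 39.8, 43.7 and 11.8 CPM in LPS p27 high, low and negative cells, against 77.6, 87.6 and 36.1 CPM in the control classes. Its level was lower after LPS in each class and lowest in p27 negative cells in each treatment. Optn (ENSMUSG00000026672, chromosome 2, 5020642 to 5064051, minus strand), the gene of optineurin, a receptor for bacteria and mitochondria, had 63.5, 68.9 and 68.6 CPM in LPS p27 high, low and negative cells, against 24.5, 41.99 and 44.1 CPM in the control classes. All LPS groups stood above all control groups for Optn. Nbr1, a relative of p62, had 85.7, 58.1 and 51.9 CPM in LPS p27 high, low and negative cells, against 114, 103 and 84.5 CPM in the control classes. Bnip3 (ENSMUSG00000078566, chromosome 7, 138890836 to 138909519, minus strand), a mitophagy receptor known as a target of hypoxia, had 11.4, 11.5 and 8.92 CPM in LPS p27 high, low and negative cells, against 22.98, 22.7 and 9.93 CPM in the control classes. Control p27 high and low cells stood apart at about the same level, and the other 4 groups were lower. Bnip3l, its close relative, had 50.97, 44.9 and 35.5 CPM in LPS p27 high, low and negative cells, against 53.7, 59.2 and 53.4 CPM in the control classes and was called in no comparison.

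In the ULK complex, the kinase gene Ulk1 had 35.4, 20.6 and 22.3 CPM in LPS p27 high, low and negative cells, against 32.5, 73.2 and 29.9 CPM in the control classes. In control p27 low cells 1 cell held 45.5% of its reads. Ulk2, its paralogue, had 20.2, 29.3 and 19.2 CPM in LPS p27 high, low and negative cells, against 22.98, 23.4 and 33.3 CPM in the control classes, and Atg13, a regulatory subunit, had 51.6, 58.9 and 53.2 CPM in LPS p27 high, low and negative cells, against 50.1, 29.97 and 52.1 CPM in the control classes. Rb1cc1, the scaffold FIP200, had 56.5, 50.8 and 49.4 CPM in LPS p27 high, low and negative cells, against 53.9, 72.6 and 65.2 CPM in the control classes and was called in no comparison.

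In the class III PI3 kinase complex, Becn1 (Beclin 1) was the most abundant by reads, with 127, 86.4 and 126 CPM in LPS p27 high, low and negative cells, against 119, 87.99 and 154 CPM in the control classes. Its lowest values were those of p27 low cells in each treatment. Pik3c3, the lipid kinase VPS34, had 35.7, 49.5 and 76.7 CPM in LPS p27 high, low and negative cells, against 104, 69.4 and 61.8 CPM in the control classes, and Pik3r4, its regulatory subunit VPS15, had 44.4, 18.9 and 14.9 CPM in LPS p27 high, low and negative cells, against 38.3, 41.5 and 25.9 CPM in the control classes. Pik3c3 was highest in control p27 high cells and lowest in LPS p27 high cells. Atg14, which directs the complex to the forming autophagosome, had 26.2, 14.2 and 18.3 CPM in LPS p27 high, low and negative cells, against 45.8, 10.9 and 19.8 CPM in the control classes. Uvrag, the subunit that takes the place of ATG14 at endosomes, had 29.5, 51.2 and 27.3 CPM in LPS p27 high, low and negative cells, against 47.3, 25.6 and 51.1 CPM in the control classes. Its order of classes was turned round between the treatments, with p27 low cells highest after LPS and lowest in control. Ambra1, a regulator of Beclin 1, had 27.8, 14.1 and 25.5 CPM in LPS p27 high, low and negative cells, against 15.7, 9.40 and 19.5 CPM in the control classes.

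Of the genes that supply and read the membrane, Atg9a, a lipid scramblase, had 6.58, 20.4 and 4.65 CPM in LPS p27 high, low and negative cells, against 11.7, 10.5 and 19.3 CPM in the control classes. A single LPS p27 low cell held 64.1% of the Atg9a reads of that group. Atg2a and Atg2b encode lipid transfer proteins. Atg2a had 69.02, 37.2 and 19.6 CPM in LPS p27 high, low and negative cells, against 50.2, 23.7 and 45.6 CPM in the control classes, and Atg2b had 34.7, 32.6 and 18.9 CPM in LPS p27 high, low and negative cells, against 32.4, 29.8 and 30.7 CPM in the control classes. Both were lowest in LPS p27 negative cells. Wipi1 and Wipi2 encode readers of the lipid that the class III PI3 kinase makes. Wipi1 had 19.9, 8.42 and 4.98 CPM in LPS p27 high, low and negative cells, against 4.28, 21.6 and 0.866 CPM in the control classes, with 1 cell at 92.7% of the LPS p27 low reads and 1 cell at 66.3% of the LPS p27 high reads. Wipi2 was far more even, with 90.6, 120.4 and 68.5 CPM in LPS p27 high, low and negative cells, against 82.8, 96.4 and 114 CPM in the control classes.

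Of the 7 genes of conjugation enzymes and their partners, 5 were called in at least 1 comparison. Atg3, which transfers ATG8 to lipid, had 133, 127 and 128 CPM in LPS p27 high, low and negative cells, against 153, 153 and 129 CPM in the control classes, within 1.21-fold over all groups. Atg7, the activating enzyme of both conjugation reactions, had 50.4, 49.04 and 28.2 CPM in LPS p27 high, low and negative cells, against 63.1, 52.4 and 56.7 CPM in the control classes. Atg10, which transfers ATG12 to ATG5, had 26.8, 19.6 and 10.8 CPM in LPS p27 high, low and negative cells, against 36.8, 6.54 and 19.9 CPM in the control classes, with 1 cell at 53.8% of the LPS p27 low reads. Atg3 was thus even across groups, while Atg10 ranged 5.63-fold. Atg12 had 73.5, 65.4 and 61.9 CPM in LPS p27 high, low and negative cells, against 108, 62.5 and 89.6 CPM in the control classes, and its partner Atg5 had 63.9, 54.04 and 90.6 CPM in LPS p27 high, low and negative cells, against 56.7, 69.2 and 71.98 CPM in the control classes. Atg16l1, which places the ATG12 and ATG5 conjugate on the membrane, had 31.03, 52.96 and 38.6 CPM in LPS p27 high, low and negative cells, against 53.97, 43.2 and 55.7 CPM in the control classes. Its paralogue Atg16l2 had 25.7, 41.04 and 27.7 CPM in LPS p27 high, low and negative cells, against 36.7, 34.01 and 17.8 CPM in the control classes, and the gene lies opposite Fchsd2. Atg5 and Atg3 were called in no comparison. Among the ATG4 proteases, which trim ATG8 proteins and free them from lipid, Atg4b had 114, 118 and 96.8 CPM in LPS p27 high, low and negative cells, against 75.02, 127 and 100.2 CPM in the control classes. Atg4d had 36.2, 4.39 and 35.4 CPM in LPS p27 high, low and negative cells, against 29.7, 46.5 and 25.4 CPM in the control classes, and its value in LPS p27 low cells was the lowest by far. Atg4c had 16.2, 15.3 and 10.3 CPM in LPS p27 high, low and negative cells, against 41.7, 21.4 and 9.43 CPM in the control classes, ran unevenly among the parts of cells and was called in no comparison.

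Transcripts of most members were found in a minority of cells at equal depth. After each cell was thinned to 50000 gene reads, Gabarap had a read in 96.8%, 97.8% and 98.9% of LPS p27 high, low and negative cells, against 92.9%, 93.5% and 96.8% of the control classes. Sqstm1 had a read in 84.9%, 90% and 77.2% of LPS p27 high, low and negative cells, against 77.4%, 81.7% and 71.6% of the control classes, and Map1lc3b in 89.2%, 84.4% and 86.96% of LPS p27 high, low and negative cells, against 85.7%, 88.2% and 85.3% of the control classes. Map1lc3b was thus found in about the same share of cells in every group, although its summed level differed 2.74-fold. Its median cell held 321, 286 and 104 CPM in LPS p27 high, low and negative cells, against 309, 279 and 189 CPM in the control classes. Gabarapl1 had a read in 79.6%, 70% and 83.7% of LPS p27 high, low and negative cells, against 89.3%, 87.1% and 85.3% of the control classes, so after LPS the share was not lower in p27 negative cells, although the summed level was. Becn1 had a read in 59.1%, 54.4% and 73.9% of LPS p27 high, low and negative cells, against 50%, 49.5% and 73.7% of the control classes, with the top share in p27 negative cells of each treatment. Calcoco1 had a read in 30.1%, 27.8% and 19.6% of LPS p27 high, low and negative cells, against 42.9%, 44.1% and 37.9% of the control classes, and Optn in 25.8%, 27.8% and 32.6% of LPS p27 high, low and negative cells, against 14.3%, 22.6% and 20% of the control classes. For both genes the share followed the summed level: Calcoco1 was found in fewer cells after LPS in each class and Optn in more. The 95% Clopper-Pearson interval of the Optn share was 17.3% to 35.9% in LPS p27 high and 7.61% to 23.6% in control p27 high cells, and these intervals overlap. They cover the drawing of cells only.

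**Figure D2:**
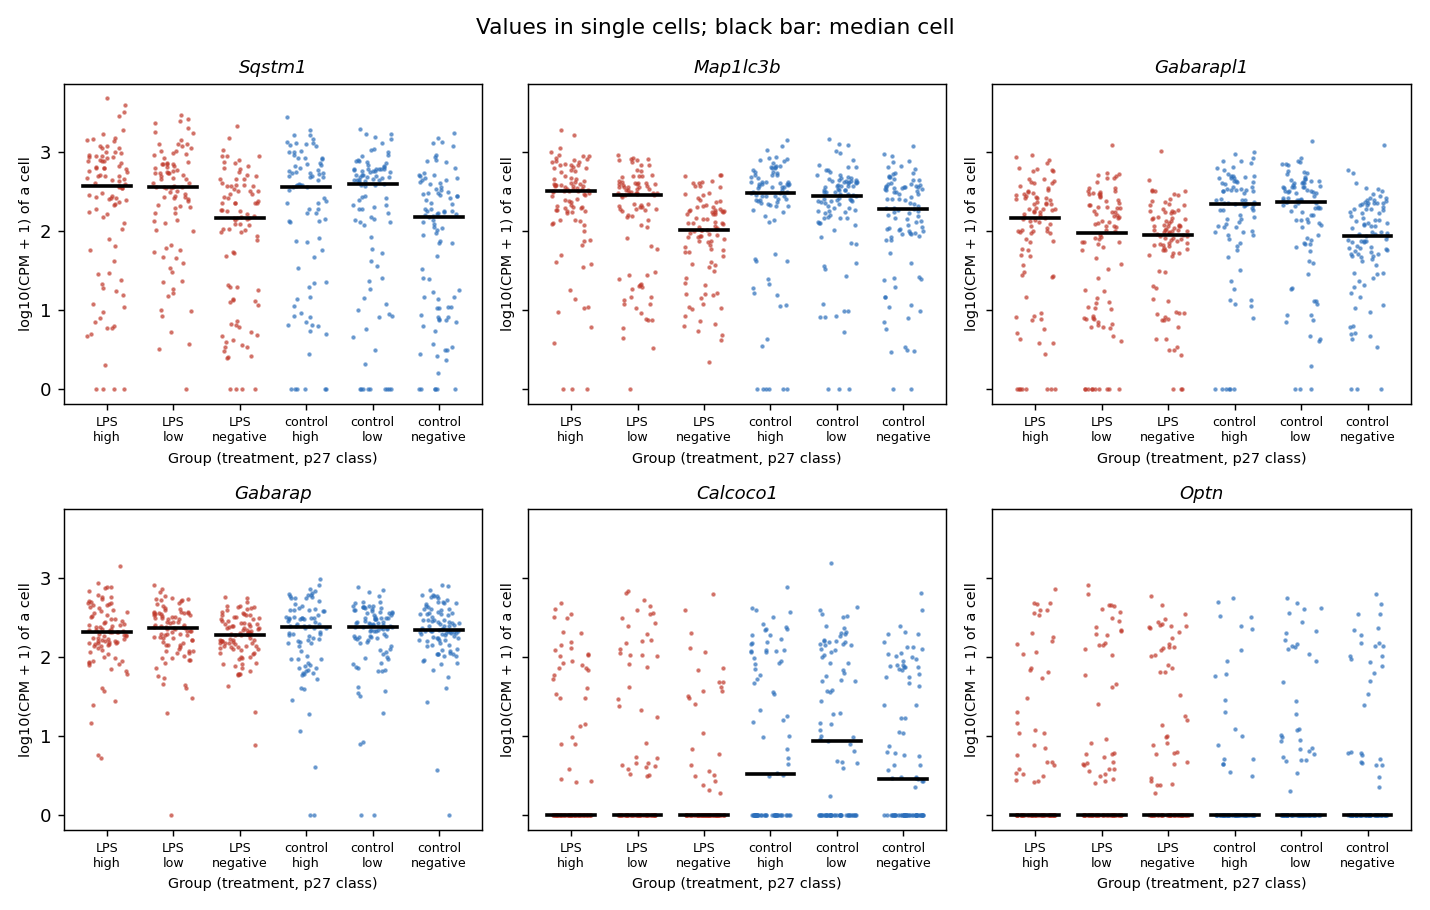
Each point is 1 kept cell, on a log10(CPM + 1) axis, for 6 genes in the 6 groups (LPS classes in red left of control classes in blue), and the black bar is the median cell. The Map1lc3b bar of LPS p27 negative cells lies at 104 CPM, below the other 5 groups, and the Gabarap bars lie between 191 and 239 CPM.

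The comparison of p27 high with p27 negative cells sets the class with the most of the p27 marker against the class in which proliferation genes were highest. After LPS, transcripts of several steps were higher in p27 high cells, among them the receptor genes Sqstm1 and Calcoco1 and 3 of the 5 ATG8 genes, of which Gabarapl2 turned per spike-in read. Of the 36 measured genes 10 were called higher and 1 lower, while 12.9% of all 9744 genes were called higher and 10.8% lower. Among all 36, 30 had a fold above 0. Their median log2 fold was 0.41, against 0.06 over all genes. Per spike-in read the median of the 36 was -0.36, since all genes shift by -0.79 on that scale. The folds per spike-in read given below keep the shift of all genes in.

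Sqstm1 had 613 CPM in LPS p27 high and 228 CPM in LPS p27 negative cells, a log2 fold of 1.42 (1.13 to 1.59 over the 3 parts). Map1lc3b was higher by 1.44 (1.13 to 1.83), and Calcoco1 by 1.67 (1.13 to 2.27). For these genes the fold stayed above 0 per spike-in read, at 0.62, 0.65 and 0.92 in the same order. Atg2a had the largest fold of the called genes, 1.76 (0.81 to 2.08), and Pik3r4 was higher by 1.51 (1.15 to 2.24). Gabarapl1 was higher by 0.86 with a narrow range over the parts, 0.75 to 0.95. The other genes called higher were Atg10 at 1.24, Atg2b at 0.85, Atg7 at 0.82 and Gabarapl2 at 0.70. Of the 10, Gabarapl2 alone turned per spike-in read, to -0.08. Pik3c3 was the gene called lower, at -1.08 (-2.17 to -0.33), and without cells numbered 1 to 32 its fold was -0.53, under the limit of the call. As the mean of per-cell CPM, Gabarapl2 was higher by 0.48 and was not past 1.5-fold.

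In control marrow the same classes differed for 8 genes called higher in p27 high cells and 1 called lower, beside 13.3% and 12.4% of all genes. The median log2 fold of the 36 was 0.13, against 0.04 over all genes, and 21 of the 36 folds were above 0. Bnip3 had 22.98 CPM in control p27 high and 9.93 CPM in control p27 negative cells, a log2 fold of 1.13 (0.51 to 2.01). Calcoco1 was higher by 1.08 (0.54 to 1.59), Gabarapl1 by 0.91 (0.26 to 1.23) and Sqstm1 by 0.87 (0.21 to 1.42). Receptor genes thus made up 3 of the 8. Atg16l2 was higher by 1.004, Atg10 by 0.86, Pik3c3 by 0.74 and Map1lc3b by 0.62. Atg9a was lower, at -0.68 (-1.09 to -0.24). Per spike-in read all genes shift by -0.42, and the 8 genes stayed above 0. In cells numbered 33 to 96 Atg10 was higher by 0.20 and no longer past 1.5-fold, and it was at -0.59 per spike-in read. The mean of per-cell CPM put Map1lc3b at 0.48.

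The LPS and control comparisons of p27 high with negative cells share no cells. Sqstm1, Map1lc3b, Gabarapl1, Atg10 and Calcoco1 were called higher in both, which is 50% of the genes called higher after LPS and 62.5% of those in control. Among all 9744 genes, 440 were called higher in both, which is 35.1% of the list after LPS and 34.1% of the list in control. No member was called lower in both, with 1 called lower in each treatment, while 438 of all genes were, or 41.7% and 36.3% of the lists. Pik3c3 was called in opposite directions, with 35.7 CPM in p27 high and 76.7 CPM in p27 negative cells after LPS, and 104 CPM in p27 high and 61.8 CPM in p27 negative cells in control.

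**Figure D3:**
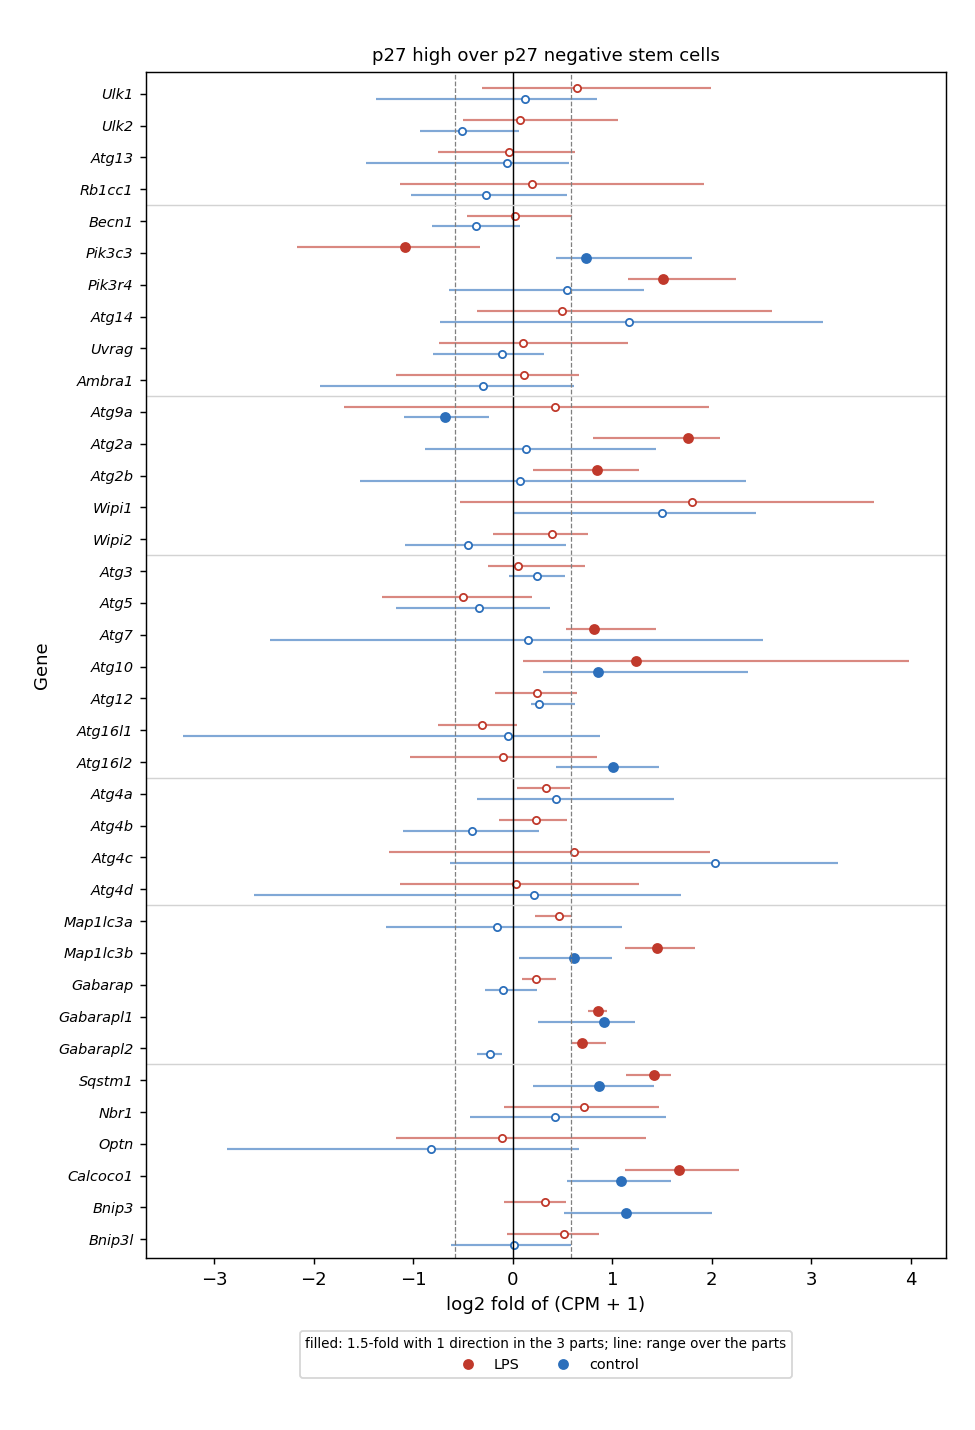
Log2 fold of p27 high over p27 negative cells for each of the 37 genes after LPS (red) and in control (blue). Filled points are called genes, open points are not called, lines run over the 3 parts of cells, and dashed lines mark 1.5-fold. Sqstm1, Map1lc3b, Gabarapl1, Atg10 and Calcoco1 have filled points right of 0 in both colours, as CPM; in cells 33 to 96 of control Atg10 is left of 0 per spike-in read.

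The promoters of the 4 genes with the most reads among those 5, and of Bnip3, are shown. These genes were called higher in p27 high than in p27 negative cells, Bnip3 in control only. They were chosen after their values were seen. RefSeq promoters on GRCm38.p6, from 250 bases before to 50 bases after a listed RefSeq start, were found for 30 of the 37 genes. Those without an entry were Map1lc3a, Becn1, Atg12, Atg16l1, Rb1cc1, Pik3c3 and Bnip3l. The listed start nearest the annotated gene start was taken, however far away. The Atg7 window lies at 114670846 to 114671145, while the annotated gene start is 114643097. The windows of Atg14, Atg4b and Wipi2, among others, did not hold the annotated start either. Capitals mark matches of the searched motifs on either strand, and sequences run 5′ to 3′ along the gene's strand.
Sqstm1, chr11:50210771-50211070, minus strand: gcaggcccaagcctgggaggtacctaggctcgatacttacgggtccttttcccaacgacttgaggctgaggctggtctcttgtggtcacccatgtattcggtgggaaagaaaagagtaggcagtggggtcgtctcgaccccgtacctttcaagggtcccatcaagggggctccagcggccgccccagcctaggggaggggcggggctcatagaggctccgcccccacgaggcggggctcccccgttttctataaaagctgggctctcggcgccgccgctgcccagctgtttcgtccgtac
Map1lc3b, chr8:121590188-121590487, plus strand: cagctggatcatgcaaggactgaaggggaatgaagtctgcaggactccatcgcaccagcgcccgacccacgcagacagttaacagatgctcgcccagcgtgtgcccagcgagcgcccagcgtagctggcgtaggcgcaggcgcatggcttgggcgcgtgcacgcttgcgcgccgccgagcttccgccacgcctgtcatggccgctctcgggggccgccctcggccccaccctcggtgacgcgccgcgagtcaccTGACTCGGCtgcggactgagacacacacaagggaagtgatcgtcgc
Gabarapl1, chr6:129532942-129533241, plus strand: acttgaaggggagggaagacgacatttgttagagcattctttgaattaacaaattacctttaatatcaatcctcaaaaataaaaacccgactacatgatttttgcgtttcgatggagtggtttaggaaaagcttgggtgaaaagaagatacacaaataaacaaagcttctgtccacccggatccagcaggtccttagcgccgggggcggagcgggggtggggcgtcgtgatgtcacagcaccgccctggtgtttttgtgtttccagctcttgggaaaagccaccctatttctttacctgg
Calcoco1, chr15:102722129-102722428, minus strand: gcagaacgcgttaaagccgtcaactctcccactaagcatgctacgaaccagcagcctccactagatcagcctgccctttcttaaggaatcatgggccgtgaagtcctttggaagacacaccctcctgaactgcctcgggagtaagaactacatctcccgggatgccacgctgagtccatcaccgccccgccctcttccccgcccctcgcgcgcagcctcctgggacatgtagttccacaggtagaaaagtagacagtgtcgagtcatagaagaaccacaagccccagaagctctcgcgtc
Bnip3, chr7:138909457-138909756, minus strand: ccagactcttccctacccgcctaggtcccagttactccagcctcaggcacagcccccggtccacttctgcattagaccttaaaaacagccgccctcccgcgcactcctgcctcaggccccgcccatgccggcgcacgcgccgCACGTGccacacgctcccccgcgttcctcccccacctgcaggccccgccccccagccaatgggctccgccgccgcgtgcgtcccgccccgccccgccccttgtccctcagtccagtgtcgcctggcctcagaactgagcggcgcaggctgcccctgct
The searched motifs were the E-box CACGTG, bound by the TFEB family of lysosome and autophagy regulators among others, the hypoxia core ACGTG, the forkhead motif GTAAACA bound by FOXO factors, and the antioxidant motif TGACNNNGC bound by NRF2. An E-box always holds the hypoxia core. Bnip3 held the E-box, in the capitals shown, and Map1lc3b held the antioxidant motif. The windows of Sqstm1, Gabarapl1 and Calcoco1 held none of the 4 as spelled here. Over the 30 genes, 5 windows (16.7%) held an E-box, against 7.24% of all 27025 promoters. Atg7 and Atg14 were among the 5. For all promoters the first listed start of a gene was taken, not the nearest, so the shares compared here rest on unlike rules. The hypoxia core stood in 12 windows (40%) against 19.7% of all, and outside an E-box in 7 (23.3%) against 13.6%. No window held the forkhead letters GTAAACA, against 3.55% of all, and 3 (10%) held the antioxidant motif, against 12.5%. Variants of the forkhead letters, such as ATAAACA in the Gabarapl1 window shown, were not searched. The windows of the 30 genes had a median of 60.8% G and C, against 52.7% of all, and the part of base composition in these shares was not tested. A match is a stretch of letters, not a shown binding site.

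In p27 low cells after LPS, 4 of the 5 genes of lipid supply and its readers were higher than in p27 negative cells, Wipi2 and Atg2b turning per spike-in read. Of the 36 genes 9 were called higher and 3 lower, beside 8.75% and 12.1% of all genes. The median log2 fold was 0.33 for the 36 and 0.03 for all genes, and 27 of the 36 folds were above 0. Atg9a was higher by 1.92 (0.70 to 2.49), with most of its reads in the single cell named above. Calcoco1 had 43.7 CPM in LPS p27 low and 11.8 CPM in LPS p27 negative cells, a log2 fold of 1.80 (0.43 to 3.40). Sqstm1 was higher by 1.32 (1.04 to 1.76) and Map1lc3b by 0.93 (0.78 to 1.01). These receptor and LC3 genes were thus higher in both p27 classes than in negative cells. Atg2a was higher by 0.89, Uvrag by 0.88, Wipi2 by 0.80, Atg2b by 0.76 and Gabarapl1 by 0.59. Atg4d was lower by far, with 4.39 CPM in LPS p27 low and 35.4 CPM in LPS p27 negative cells, a log2 fold of -2.76 (-3.34 to -1.83). Ambra1 was lower at -0.82 and Pik3c3 at -0.62. Per spike-in read all genes shift by -0.89, and Gabarapl1, Wipi2 and Atg2b turned, to -0.30, -0.09 and -0.11. In cells 33 to 96 Atg2a was at 0.58 and Wipi2 at 0.53, short of 1.5-fold, and Atg2a was at -0.21 per spike-in read. The mean of per-cell CPM turned Pik3c3 to 0.057 and put Ambra1 at -0.42 and Gabarapl1 at 0.37, none of them past 1.5-fold.

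In control marrow, p27 low cells had 8 genes called higher and 3 lower than p27 negative cells, beside 10.6% and 10.2% of all genes. The median log2 fold was 0.05 for the 36 and 0.06 for all genes. Bnip3 was higher by 1.12 (0.48 to 2.02), Calcoco1 by 1.26 (0.44 to 1.90) and Gabarapl1 by 0.96 (0.63 to 1.44). All 3 genes were also called higher in control p27 high than in negative cells. Wipi1 was higher by 3.60, on few cells, and Ulk1 by 1.26 (0.05 to 2.06). Atg16l2 was higher by 0.90, Map1lc3b by 0.66 and Map1lc3a by 0.64. Sqstm1 had 419.9 CPM in control p27 low and 244 CPM in control p27 negative cells, but its fold of 0.78 changed sign among the parts (-0.11 to 1.56). Uvrag was lower at -0.97, Becn1 at -0.80 and Atg13 at -0.78 (-0.97 to -0.61). Across both treatments, Map1lc3b, Gabarapl1 and Calcoco1 were called higher in p27 low than in p27 negative cells, which is 33.3% of the list after LPS and 37.5% of the list in control. Of all genes, 192 were called higher in both, or 22.5% and 18.7% of the lists. In control cells 33 to 96 Atg16l2 was at 0.42 and was not past 1.5-fold, and per spike-in read in these cells it turned to -0.10. The mean of per-cell CPM put Map1lc3b at 0.36, Map1lc3a at 0.49, Becn1 at -0.49 and Uvrag at -0.45.

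The comparison of p27 high with p27 low cells gave calls on both sides in each treatment, among them Atg4d and Wipi1, genes with reads in few cells, and Atg4b and Map1lc3a, found in more. After LPS 5 genes were called higher and 3 lower in p27 high cells, beside 11.8% and 6.87% of all genes, with a median log2 fold of 0.11 against 0.06 over all genes. Atg4d had 36.2 CPM in LPS p27 high and 4.39 CPM in LPS p27 low cells, a log2 fold of 2.79 (0.69 to 4.31). Pik3r4 was higher by 1.19, Wipi1 by 1.15, Ulk1 by 0.75 and Map1lc3a by 0.73. Uvrag was lower at -0.78, Atg16l1 at -0.75 (-1.16 to -0.59) and Atg16l2 at -0.65. Without the top cell of each group Atg16l2 was at -0.042, and the mean of per-cell CPM put Map1lc3a at 0.12. In control 4 genes were called higher and 5 lower, beside 9.58% and 8.31% of all genes, and the median log2 fold was 0.0056 against -0.00037 over all genes. Atg10 was higher by 2.33, Atg14 by 1.98, Uvrag by 0.86 and Atg12 by 0.78. Wipi1 was lower at -2.10, Ulk1 at -1.15 (-1.43 to -0.76), Map1lc3a at -0.80, Atg4b at -0.75 and Optn at -0.75. Sqstm1, Map1lc3b, Gabarapl1, Calcoco1 and Bnip3 had log2 folds of 0.08, -0.04, -0.04, -0.17 and 0.02 between control p27 high and low cells, none past the limit. As the mean of per-cell CPM, Ulk1 was at -0.47, Map1lc3a at -0.28, Atg4b at -0.34, Optn at -0.47 and Atg12 at 0.58, none of them past 1.5-fold. No member was called in the same direction in both treatments. Of all genes 217 were called higher in both, or 18.8% and 23.3% of the lists, and 92 lower, or 13.8% and 11.4%, and the members' lists hold 3 to 5 genes each.

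LPS was set against control within each p27 class. Optn was the gene called higher after LPS in all 3 classes, and Calcoco1 the gene called lower in all 3. Not every one of these calls held: Optn in p27 negative cells was at 0.43 without the top cell, 0.52 as the mean of per-cell CPM and 0.33 without cells numbered 1 to 32, and Calcoco1 in p27 low cells was at -0.28 as the mean of per-cell CPM. In all genes, 253 (2.60%) were called higher and 164 (1.68%) lower in all 3 classes. Optn had log2 folds of 1.34 (1.01 to 1.90) for the p27 high, 0.70 (0.55 to 1.01) for the p27 low and 0.63 (0.20 to 0.86) for the p27 negative class. Calcoco1 had log2 folds of -0.95 (-1.66 to -0.44), -0.99 (-2.05 to -0.08) and -1.53 (-2.16 to -1.03) in the same classes. Per spike-in read all genes shift by 1.41, 1.24 and 1.78 in the p27 high, low and negative class, and by 0.37, 0.02 and 0.30 without the control and LPS cells numbered 1 to 32. On all cells Calcoco1 per spike-in read turned to 0.48, 0.27 and 0.20, and in cells 33 to 96 it was at -0.23, -0.89 and -0.93. Optn was above 0 in each class on both. With TMM factors the median of all genes was 0.04, -0.01 and -0.0043 in the 3 classes, against -0.09, -0.17 and -0.13 without them, and no called member turned.

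In p27 high cells 3 of the 36 genes were called higher after LPS and 5 lower, beside 9.07% and 13.5% of all genes. The median log2 fold was 0.04 for the 36 and -0.09 for all genes. Map1lc3a had 66.6 CPM in LPS p27 high and 22.6 CPM in control p27 high cells, a log2 fold of 1.52 (1.09 to 2.56), and it was found in 40.9% of LPS p27 high against 27.4% of control p27 high cells. Atg4b was higher by 0.60, just past the limit. Pik3c3 was lower at -1.51 (-2.43 to -1.14), with 35.7 CPM in LPS p27 high and 104 CPM in control p27 high cells. Bnip3 was lower at -0.95 (-1.26 to -0.81), Atg9a at -0.74 and Uvrag at -0.66. Sqstm1 was at 0.46, above 0 in each part but short of 1.5-fold. On all cells per spike-in read Bnip3, Atg9a and Uvrag turned above 0, and in cells 33 to 96 they were at -0.50, -0.57 and -0.23. As the mean of per-cell CPM Atg4b was at 0.34, and without its top cells Uvrag was at -0.47, neither past 1.5-fold.

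In p27 low cells 5 genes were called higher after LPS and 7 lower, beside 9.02% and 17.6% of all genes, with a median log2 fold of -0.02 for the 36 and -0.17 for all genes. Atg10 was higher by 1.45, Uvrag by 0.97 (0.58 to 1.63), Atg13 by 0.95 and Atg9a by 0.90. Of these, Atg9a turned to -0.17 without the top cell of each group, and Atg10 was at 0.088 as the mean of per-cell CPM. Atg4d was lower at -3.14 (-4.74 to -1.61) and Ulk1 at -1.78 (-3.91 to -0.50). Ulk1 was found in 13.3% of LPS p27 low and 29.03% of control p27 low cells. Wipi1 was lower at -1.26, Bnip3 at -0.92, Nbr1 at -0.81 (-1.07 to -0.74) and Gabarapl1 at -0.73 (-1.28 to -0.12). Calcoco1, Nbr1, Bnip3 and Gabarapl1 turned above 0 per spike-in read on all cells, and in cells 33 to 96 Gabarapl1 was at -0.74 and Nbr1 at -0.90. As the mean of per-cell CPM Nbr1 was at -0.19 and Calcoco1 at -0.28.

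In p27 negative cells 2 genes were called higher after LPS and 9 lower, beside 8.19% and 13.7% of all genes. The median log2 fold was -0.38 for the 36 and -0.13 for all genes, and 26 of the 36 folds were below 0. Atg16l2 was higher by 0.61 (0.09 to 1.25), just past the limit. It was at 0.55 in cells with at least 200000 gene reads, not past 1.5-fold. In cells with at most 10% mitochondrially encoded reads it was at 0.577, also not past 1.5-fold. The kept control p27 negative cells ran up to 97.9% of such reads. Atg9a was lower at -1.84 (-3.34 to -0.16), Atg2a at -1.18 (-1.70 to -0.69) and Uvrag at -0.88. Map1lc3b had 128 CPM in LPS p27 negative and 216 CPM in control p27 negative cells, a log2 fold of -0.74 (-1.32 to -0.29). Ulk2 was lower at -0.76, Pik3r4 at -0.76, Nbr1 at -0.69 and Gabarapl2 at -0.61 (-0.83 to -0.43). Without cells numbered 1 to 32, Map1lc3b was at -0.34, Ulk2 at -0.57, Pik3r4 at -0.40, Nbr1 at -0.37 and Optn at 0.33, none of them past 1.5-fold. Per spike-in read on all cells 8 of the 9 genes called lower turned above 0, all but Atg9a, and in cells 33 to 96 all 9 were below 0. As the mean of per-cell CPM, Atg2a was at -0.36 and Gabarapl2 at -0.40.

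**Figure D4:**
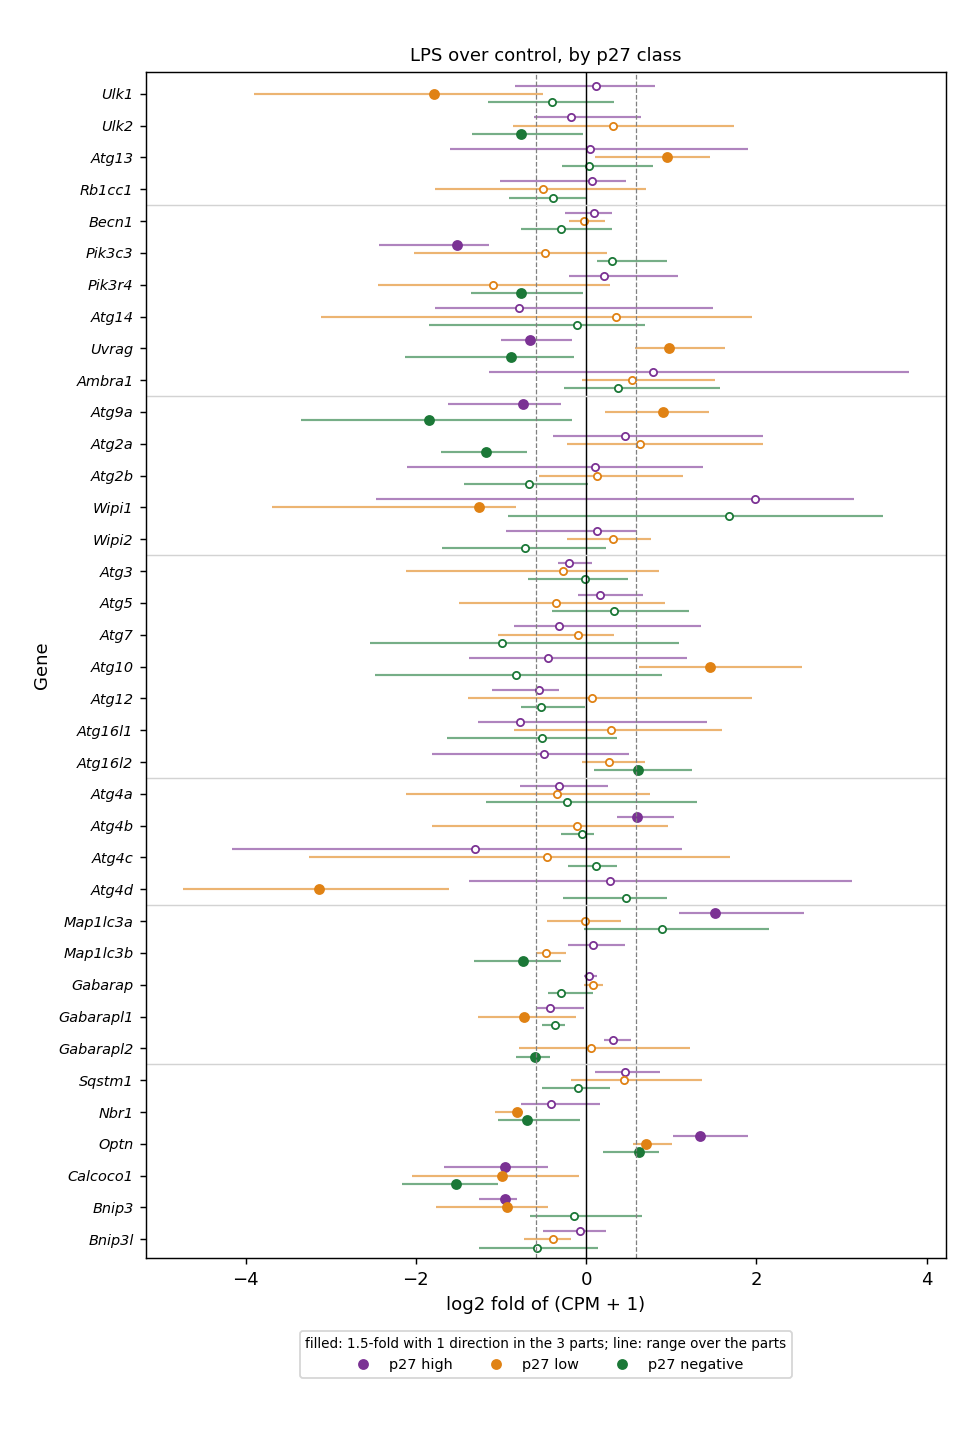
Log2 fold of LPS over control for each of the 37 genes in p27 high, low and negative cells, as CPM. Filled points are called genes, open points are not called, lines run over the 3 parts of cells, and dashed lines mark 1.5-fold. The 3 Optn points are filled right of 0 and the 3 Calcoco1 points filled left of 0; per spike-in read on all cells the Calcoco1 points lie right of 0.

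Of the 36 measured genes, 30 (83.3%) were called in at least 1 of the 9 comparisons, against 73.6% of all 9744 genes, and Gabarap, Atg3, Atg5, Atg4c, Bnip3l and Rb1cc1 in none. There were 91 calls in all, of which 35 (38.5%) were past 2-fold, against 54.7% of the 19354 calls of all genes. Past 1.5-fold under each of 5 alternatives (the mean of per-cell CPM, the top cell left out, cells 1 to 32 left out, and 2 other scalings) were 56 of the 91. Among them were the calls of Sqstm1, Gabarapl1 and Calcoco1 for p27 high against negative cells in both treatments, while Map1lc3b and Atg10 were among them after LPS only, as a count under these alternatives and not as a tested difference. Ranks of Sqstm1, Map1lc3b, Gabarap and Gabarapl1 across the cells of a group were related weakly, with Spearman's rho from -0.17 to 0.30, and all share the depth of a cell.

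Other genes of autophagy were counted from a list of 38, of which 33 were measured. After LPS, p27 high cells had 7 called higher than p27 negative cells, led by Tecpr1 at a log2 fold of 3.61, Tex264 at 1.39 and Pink1 at 1.22, and 1, Sh3glb1, was called lower, at -0.67. Of all genes, 12.9% were called higher and 10.8% lower in that comparison. In control 3 were called higher and 3 lower, beside 13.3% and 12.4% of all genes. Pink1, the mitophagy kinase, and Retreg1, a receptor for the endoplasmic reticulum, were higher in both treatments. LPS against control gave 5 higher and 3 lower in p27 high, 5 and 4 in p27 low, and 3 and 5 in p27 negative cells, beside 9.07% and 13.5%, 9.02% and 17.6%, and 8.19% and 13.7% of all genes. Vmp1, a scramblase of the endoplasmic reticulum, was higher after LPS in p27 high and low cells. Of 30 listed genes of TORC1 and AMPK, the growth and energy sensors that act on the ULK complex, 25 were measured. In p27 low cells 9 of the 25 were lower after LPS, led by Sesn1 at -1.70, Deptor at -1.35 and Prkab1 at -1.04, and 1 was higher, Sesn2 at 1.64. In p27 high cells 3 were higher and 2 lower, and in p27 negative cells 2 were higher and 4 lower, beside the shares of all genes just given. Prkab1, an AMPK subunit gene, was called lower after LPS in all 3 classes.

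Some values share a locus with another gene. Nextera libraries do not mark strand, so reads where genes lie opposite each other cannot be told apart. Becn1 overlaps Cntd1, Atg16l2 overlaps Fchsd2, Atg4b overlaps Thap4, Atg4d overlaps Kri1, Rb1cc1 overlaps 4732440D04Rik, Sqstm1 overlaps Mrnip and Atg2b overlaps Gskip, each in part. Map1lc3b overlaps Zcchc14 over 58 bases and Gabarapl1 overlaps 1700101I11Rik over 658 bases, both on the other strand, with 770 and 225 reads counted for the other gene over all groups. Map1lc3b also lies whole within Gm20388 on its own strand, which had 0 reads. Bnip3l has a processed pseudogene, Bnip3l-ps, on chromosome 12. The counts of these genes are uncertain to that extent.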

How the data were processed

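RNA of 576 single mouse stem cells was measured. Per the labels' protocols, single cells sorted into wells were amplified after Picelli and sequenced as Nextera XT libraries. What the authors deposited is raw counts, not normalized, in 2 tables of 288 cells. GSNAP, HTSeq 0.6.0 and the build mm10 are named in the submitters' processing notes. An annotation release, a strand setting or a read filter was not given in the sources used here. Of all reads, 34.1% fell on genes, 2.06% on 92 spike-ins and 63.8% in 5 summary rows that name no gene, which stayed out of totals. Reads with several alignments were listed at 0 in every cell. How such reads were handled was not given, so the counts of genes with near copies are uncertain. No pair of cells held identical counts. Cells were not clustered and doublets were not searched for.

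Symbols and coordinates came from GENCODE M21 (GRCm38), which named 45229 of the 46078 gene IDs. Cells under 50000 gene reads were left out (29, of which 12 were control p27 high). Summed counts were turned into CPM, with exact 95% Poisson intervals, and 1 CPM was added before log2. Groups come from 1 sample each as far as the labels say, so no test, standard error or p-value was computed, and without molecular identifiers the intervals cover counting error only. The mean CPM limit of 10, the 1.5-fold rule and the 3 parts by cell number make a call. Named were all members called in any of the 9 comparisons, with up to 5 each way described per comparison, the ATG8 genes, Sqstm1, Bnip3, Bnip3l, Ulk1 and Becn1, and up to 3 each way from other lists (other autophagy genes, TORC1 and AMPK, TFEB family, hypoxia targets, NRF2 targets, LPS response and cell type markers). Members called beyond those 5, and Vmp1, Retreg1, Pink1 in control and Prkab1 in 2 classes, were also named, after their values were seen. The members, lists and parts of the design were chosen with earlier results of these data known.

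Alternatives were TMM factors (edgeR 4.0.16) and median-of-ratios size factors (DESeq2 1.42.0), used for scaling only, spike-in scaling, the mean of per-cell CPM, other cell and gene limits, 0.1 or 5 CPM added, a 2-fold rule, single parts, and leaving out the top cell. Leaving out cells 1 to 32 and the principal transcript length were added after the data were seen. Python 3.11.15, pandas 2.3.3, scipy 1.17.1 and R 4.3.3 were used.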

Additional observations from a re-analysis of the deposited data

Results flagged for a closer look

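For 6 genes a called difference in one group or treatment stood against a called difference in the opposite direction in another, and the differences between the folds were not tested. Differences are log2 fold minus log2 fold.

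For Atg9a, LPS against control gave -0.74 in p27 high and 0.90 in p27 low cells, a difference of -1.64. The fold of Atg9a in p27 low cells was 0.90 and that in p27 negative cells was -1.84, a difference of 2.75. Without the top cell of each group the fold in p27 low cells was -0.17, and the opposite directions were then gone.

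For Uvrag, LPS against control gave -0.66 in p27 high and 0.97 in p27 low cells, a difference of -1.64, and -0.88 in p27 negative cells, with p27 low minus p27 negative at 1.85. The same values seen by class are p27 high against low, -0.78 after LPS and 0.86 in control, with a difference of -1.64, and p27 low against negative, 0.88 after LPS and -0.97 in control, with a difference of 1.85. These figures rest on the same 6 levels and are not separate observations.

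For Pik3c3, p27 high against negative gave -1.08 after LPS and 0.74 in control, a difference of -1.82. In cells 33 to 96 the fold after LPS was -0.53.

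For p27 high against low, Map1lc3a had 0.73 after LPS and -0.80 in control, a difference of 1.53. Ulk1 had 0.75 after LPS and -1.15 in control, a difference of 1.90. As the mean of per-cell CPM, Map1lc3a was past 1.5-fold in neither treatment and Ulk1 was not in control. A single control p27 low cell held a large part of the Ulk1 reads of that group, as given above. Wipi1 had 1.15 after LPS and -2.10 in control, a difference of 3.24, with reads in 6.45% of LPS p27 high cells, 2.22% of LPS p27 low cells, 5.95% of control p27 high cells and 7.53% of control p27 low cells at equal depth.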

How the results depend on the processing

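With 1 sample per group, these alternatives describe the same cells. No paired analysis was possible because the result comes from no test and cell numbers pair no samples. Per spike-in read, with the shift of all genes left in, 20 of the 91 calls changed direction. Under the other alternatives 2 did: Atg9a for LPS against control in p27 low cells was -0.17 without the top cell, and Pik3c3 for p27 low against negative cells after LPS was 0.057 as the mean of per-cell CPM. Below 1.5-fold came 22 calls as the mean of per-cell CPM, 10 without cells 1 to 32, 7 without the top cell, 6 with TMM and 3 with median-of-ratios factors. In single parts of the cells 28 (cells 1 to 32), 19 (33 to 64) and 32 (65 to 96) came below it, and 10 each with 5 CPM added and in cells with at least 200000 reads. The parts cannot change a direction, since the call asks for the same direction in each. Under TMM the 6 were Uvrag (-0.53) in p27 high, Gabarapl1 (-0.57) in p27 low, and Gabarapl2 (-0.49) and Nbr1 (-0.57) in p27 negative cells for LPS against control, Gabarapl1 (0.58) for p27 low against negative cells after LPS, and Map1lc3b (0.53) for p27 high against negative cells in control.

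The members' median log2 fold moved as follows. LPS against control in p27 high cells gave 0.17 with TMM and -0.12 as the mean of per-cell CPM. In p27 low cells it gave 0.14 with TMM, -0.20 without the top cell, -0.19 in cells 33 to 64 and -0.19 over genes of at least 50 CPM. In p27 negative cells it gave -0.012 in cells 33 to 64. For p27 high against negative after LPS it was 0.29 as the mean of per-cell CPM, 0.56 in cells 33 to 64 and 0.23 at 50 CPM. For p27 low against negative after LPS it was 0.54 in cells 65 to 96 and 0.12 at 50 CPM. p27 high against low after LPS gave -0.083 in cells 65 to 96. For p27 high against negative in control it was 0.54 in cells 33 to 64. For p27 high against low in control it was -0.037 with TMM, -0.016 with median-of-ratios factors, 0.12 as the mean of per-cell CPM, -0.095 in cells with at least 200000 reads, 0.079 in cells 1 to 32, 0.18 in cells 33 to 64 and -0.045 at 50 CPM. For p27 low against negative in control it was -0.051 as the mean of per-cell CPM, -0.040 without the top cell, 0.25 in cells 33 to 64, and -0.041 both with any read and at 1 CPM. The cause was not tested. No direction of the median holds over these alternatives for p27 high against low in either treatment, p27 low against negative in control, or LPS against control in p27 high and low cells. In the remaining comparisons the median turned per spike-in read, with the shift of all genes left in. It went to -0.36 for p27 high against negative after LPS and to -0.30 in control. For p27 low against negative after LPS it went to -0.53, and for LPS against control in p27 negative cells to 1.42.

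Depth limits genes below about 30 CPM, where 1 cell often held most reads of a group.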

Other observations

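Lists of regulators and of genes that share transcription factors with autophagy were counted by the same rule. Of all genes, 12.9% were called higher and 10.8% lower in p27 high than in p27 negative cells after LPS. In control these shares were 13.3% and 12.4%. For LPS against control the shares were 9.07% and 13.5% in p27 high and 9.02% and 17.6% in p27 low cells. In p27 negative cells they were 8.19% and 13.7%. Of 7 listed genes of the TFEB family and its control, 4 were measured. For p27 high against negative cells after LPS 2 of the 4 were higher, Tfec and Flcn, and in control 1, Flcn. LPS against control gave Flcn lower in the p27 high and the p27 negative class, Tfec lower in p27 low cells and Tfe3 higher in p27 negative cells.

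Of 11 listed targets of hypoxia-inducible factors 8 were measured. Against p27 negative cells, p27 high cells had Pdk1 and Slc2a1 higher after LPS, and P4ha1 and Ero1l higher and Egln3 lower in control. LPS against control gave 2 lower in p27 high cells, P4ha1 and Car9, none either way in p27 low cells, and 2 lower in p27 negative cells, Pdk1 and Slc2a1. Of 10 listed NRF2 targets, a list that Sqstm1 is often counted with, 9 were measured. Osgin1 and Nqo1 were higher in p27 high than in p27 negative cells after LPS. In control Osgin1 was higher and Nqo1 lower. LPS against control gave Osgin1 lower in all 3 classes, Gclm lower in p27 low and negative cells, and Nqo1 higher in p27 high cells, at a log2 fold of 1.52. These are counts in single samples, to be read beside the shares of all genes given above, and no list was tested.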
